A study of Mus musculus with 28 samples.

Results

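Livers of mice labelled MDKO were compared with livers labelled Lyz2-Cre across all genes of the liver table, with 4 livers in each group. These 8 livers were chosen by their genotype label alone, from 16 livers and 28 samples in the series. Lyz2-Cre mice carry the Cre recombinase under the Lyz2 promoter and served as the controls. In MDKO mice the same Cre is meant to remove both Nfatc3 and Map3k5, the gene for the kinase ASK1, from Lyz2-expressing cells, which are macrophages, monocytes and neutrophils. All 8 livers are labelled as from male mice that began a methionine- and choline-deficient diet at 8 weeks of age and were kept on it for 4 weeks. The remaining livers of the series are labelled NFATc3-MKO and ASK1-MKO, with 4 livers in each group. Those labels name the loss of NFATc3 alone or of ASK1 alone. They give the same age at the start of the diet and the same time on it. The main fit used all 16 livers. Whole liver was sequenced, so the targeted cells are mixed with all others, and fewer cells of a type cannot be told apart from less RNA per cell. The sources used here give no mouse strain. The labels number the livers of each group from 1 to 4 and do not say whether equal numbers mark a shared litter, cage, day or batch.

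The methionine- and choline-deficient diet is a standard way to bring on steatohepatitis. It starves hepatocytes of the phosphatidylcholine needed to export fat, so that fat, oxidative stress, inflammation and scarring build up. NFATc3 is a transcription factor that calcineurin sends to the nucleus when calcium rises. ASK1 is a kinase at the head of the p38 and JNK stress cascades. The study asked what the loss of either or both in macrophages does to the diseased liver.

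The libraries held 20601168 to 28410720 counts in 7 of the 8 livers and 8912117 in MDKO replicate 3. Mitochondrial transcripts took 13.2 to 15.8% of the counts, and the 10 most abundant genes took 22.8 to 25.7%. The tissue label was borne out in every library, with the 16 general hepatocyte markers summing to 123400 to 163200 CPM. Levels are given as CPM, the usual count scaled to library size, here with a further scaling for library composition. They are not corrected for gene length, so they are compared between livers and not between genes.

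The targeted genes did not separate the 2 groups. Nfatc3, on chromosome 8 (106058818 to 106130537 in GRCm38), stood at 30.6, 37.1, 39.8 and 37.6 CPM in Lyz2-Cre livers 1 to 4 and at 29.8, 37.5, 39.8 and 39.1 CPM in MDKO livers 1 to 4. The lowest liver was number 1 in both groups, and the ranges overlapped almost completely. The log2 difference, MDKO minus Lyz2-Cre throughout, was 0.01 with a 90% interval of −0.24 to 0.26, and a two-sided exact permutation test gave p = 0.914 (n = 4 per group, smallest possible p 0.0286). Map3k5, on chromosome 10 (19934101 to 20142750), stood at 32.7, 31.8, 27.7 and 31.3 CPM against 28.2, 32.3, 29.3 and 32.4 CPM (log2 difference −0.01, 90% interval −0.28 to 0.25, exact permutation p = 0.943). The labels name a loss in Lyz2-expressing cells only. The share of either transcript that comes from those cells in whole liver was not measured, so these values check the labels neither way.

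No gene passed the test between MDKO and Lyz2-Cre livers. Of 13309 genes that passed the expression filter, 0 were called changed (0%) by edgeR's quasi-likelihood test at a Benjamini-Hochberg adjusted p under 0.05. DESeq2 and limma's voom also called 0. Before adjustment 35 genes (0.263%) had an edgeR p under 0.05, 23 higher (0.173%) and 12 lower (0.0902%) in MDKO. A fit of these 8 livers that blocked on the replicate number gave 186 of 12746 genes (1.46%), and 0 passed after adjustment. Both shares lie below the 0.05 that this threshold gives where no gene differs and the error of the test fits the data. The fit of 16 livers kept any variation between replicate numbers in its error. These low counts are therefore not read as likeness. A p that misses the threshold does not show likeness, so likeness was tested on its own, gene by gene, against a stated bound. For 12106 genes (91%) a difference of 2-fold or more in either direction was refused by 2 one-sided tests at an adjusted p under 0.05. Against the tighter bound of 1.5-fold, 9438 genes (70.9%) passed. With the block, 97.4% of genes lay within 2-fold and 86.3% within 1.5-fold. In the same fit of 16 livers, 1124 genes (8.45%) were called between NFATc3-MKO and Lyz2-Cre and 1126 (8.46%) between ASK1-MKO and Lyz2-Cre, and 78.4% and 80% lay within 2-fold. The 3 comparisons share the Lyz2-Cre livers, and the difference between them was not tested.

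Genes of higher level were bounded more tightly. Of 7391 genes with a mean of 10 CPM or more, 7355 (99.5%) lay within 2-fold, against 4751 of 5918 (80.3%) below that level. In the median gene the 90% interval reached a 1.31-fold difference, and a 1.24-fold difference among genes at 10 CPM or more. With the block these values were 1.17 and 1.13. The log2 difference exceeded 1 in either direction in 42 genes (0.316%), and in 0 genes at 10 CPM or more. The middle 90% of log2 differences ran from −0.22 to 0.25. Without MDKO replicate 3, the library of lowest depth, 0 genes were called and 11834 lay within 2-fold.

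**Figure D1:**
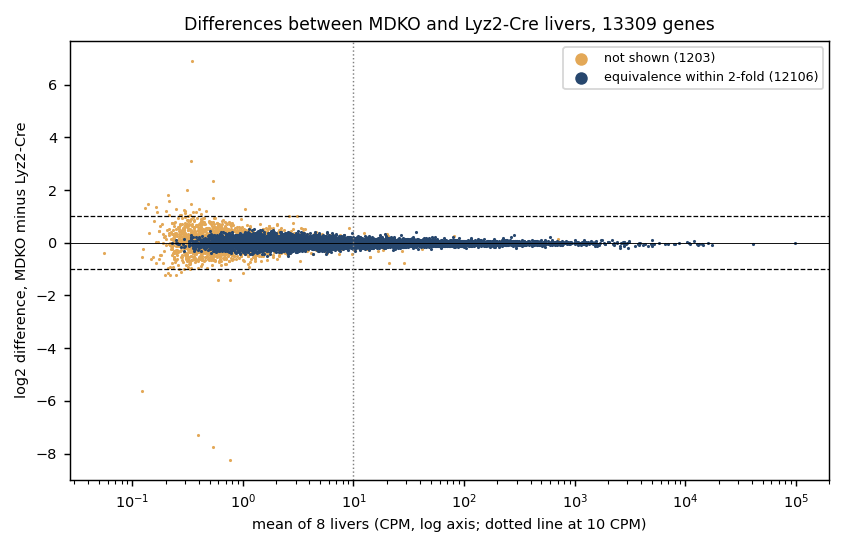
Log2 difference, MDKO minus Lyz2-Cre (vertical axis), against the mean CPM of the 8 livers (horizontal log axis) for 13309 genes. Dark points are the 12106 genes with equivalence shown within 2-fold, light points are the others, and dashed lines mark 2-fold. No gene at 10 CPM or more lies beyond the dashed lines.

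The tightest bounds of single genes kept the groups within a small fraction of 2-fold. Dnajc14, a co-chaperone of the endoplasmic reticulum, stood at 31.2 to 34.0 CPM in Lyz2-Cre and 31.6 to 34.1 CPM in MDKO livers, with a 90% interval of −0.14 to 0.14. Ddx6, a helicase of messenger RNA decay, stood at 170 to 180 CPM and 167 to 184 CPM. Rab10, a small GTPase of vesicle transport, stood at 115 to 122 CPM and 115 to 125 CPM. Ranbp9, Ankrd40 and Btbd1 completed the 6 tightest, each with its interval inside −0.16 to 0.15.

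The genes with the smallest p between the groups were then examined, and none of them passed after adjustment. Gm21244 had the smallest p of the genes higher in MDKO once a mean of 1 CPM or more was asked for, at 1.21, 1.87, 1.31 and 1.81 CPM in Lyz2-Cre livers and 2.45, 2.91, 2.30 and 2.33 CPM in MDKO livers (log2 difference 0.70 ± 0.21 SE, edgeR adjusted p = 1). All MDKO livers lay above all Lyz2-Cre livers in this gene. Such a separation, in either direction, was seen in 61 genes (0.458%). Random labels on unrelated livers would give a larger share, of 0.0286. Ift74, a component of the transport machinery of cilia, stood at 3.18 to 4.18 against 3.46 to 4.91 CPM, and Armcx2 and Wdr90 followed. Atic, an enzyme of purine synthesis, stood at 35.1 to 38.9 CPM in Lyz2-Cre and 30.1 to 33.3 CPM in MDKO livers (−0.20 ± 0.09 SE, edgeR adjusted p = 1). Tmem192, a lysosomal membrane protein, stood at 11.5 to 15.2 against 9.29 to 11.4 CPM, and Fzr1, an activator of the anaphase-promoting complex, at 7.17 to 9.78 against 5.78 to 7.70 CPM.

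The scores of the pathway lists differed little between the groups, with bounds that varied from list to list. Each of 26 pathway lists was summarised in each liver by the mean log2 CPM of its tested members, and the difference of the group means was given an exact rank-sum interval (94.3%) from the 16 pairwise differences between livers. All 26 intervals held 0, and the differences ran from −0.08 to 0.07. The interval stayed within 1.5-fold in 19 lists and within 2-fold in 25. These lists hold 0 called genes (0%), as does the whole table. The lists share some members with each other, so they are not separate observations.

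The narrowest bounds fell on signalling, the lysosome and sugar metabolism. The list of ASK1 and stress MAP kinases, the cascade below Map3k5, scored 4.03 to 4.10 in Lyz2-Cre and 4.06 to 4.14 in MDKO livers, a difference of 0.03 with a bound of 1.06-fold. That bound is of the mean score, and 20 of 21 members were shown to lie within 2-fold and 16 within 1.5-fold. Lysosomal genes differed by −0.04 (bound 1.09-fold), with 25 of 25 members shown to lie within 2-fold and 23 within 1.5-fold. Glycolysis and gluconeogenesis differed by −0.02 (1.09-fold), with 25 of 25 within 2-fold. The clock genes differed by −0.02 (1.12-fold) and the NFAT and calcineurin list by −0.01 (1.15-fold), with 18 of its 18 members within 2-fold.

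The pathways of the 2 targeted proteins were examined gene by gene. Calcium enters through the channel Orai1 and its sensor Stim1, calcineurin (Ppp3ca, Ppp3cb and Ppp3r1 among its subunits) then frees NFAT from its phosphates, and Rcan1 is a calcineurin inhibitor that NFAT itself induces. Ppp3r1 stood at 56.3, 57.7, 60.3 and 62.6 CPM in Lyz2-Cre and 52.5, 59.9, 54.4 and 63.9 CPM in MDKO livers. Rcan1 stood at 50.3, 47.5, 88.7 and 55.9 against 50.6, 51.5, 72.7 and 54.9 CPM, highest in number 3 of both groups. Among the relatives of Nfatc3, Nfatc1 stood at 9.64 to 11.4 against 10.1 to 11.6 CPM, and Nfatc2 and Nfatc4 stayed under 1 CPM in all 8 livers. Along the ASK1 cascade, the ASK1 inhibitor thioredoxin, Txn1, stood at 141 to 197 against 157 to 211 CPM, the kinase Map2k4 at 37.7 to 42.6 against 36.1 to 42.5 CPM, and p38α, Mapk14, at 72.3 to 96.9 against 71.4 to 95.9 CPM. The ranges overlapped in each of these genes.

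Lipid and methyl metabolism, which the diet disturbs, was bounded almost as closely. Fatty acid oxidation differed by 0.01 (bound 1.23-fold), lipogenesis and triglyceride synthesis by 0.0039 (1.22-fold), genes of lipid droplets, uptake and export by −0.02 (1.17-fold), and methionine, choline and one-carbon metabolism by −0.04 (1.19-fold). Cpt1a, the gate of fatty acids into mitochondria, stood at 580 to 777 CPM in Lyz2-Cre and 588 to 634 CPM in MDKO livers. Scd1, the desaturase that makes oleate, stood at 230, 412, 426 and 327 CPM against 173, 361, 418 and 339 CPM. Both groups had their lowest Scd1 in liver 1. The 27 tested genes of oxidative phosphorylation all lay within 1.5-fold. Cholesterol synthesis had a wider bound (0.05, 1.38-fold), with 22 of 22 members within 2-fold.

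Inflammation, matrix and stress lists were less tightly bounded when the numbers were not used, and livers of 1 group lay further apart in them. Cytokines and chemokines differed by −0.08, with the widest bound of the pathway lists at 2.25-fold and 6 of 19 members within 2-fold. The matrix list differed by −0.01 with a bound of 1.80-fold and 18 of 31 members within 2-fold. The acute phase list differed by −0.07 (1.74-fold), the unfolded protein and integrated stress response by −0.06 (1.75-fold) and the inflammasome and Toll-like receptor list by −0.07 (1.62-fold). The interferon response was closer, at 0.0041 (1.22-fold) with 23 of 23 members within 2-fold. Compared within same-numbered pairs, most of these lists closed up. The stress response scores differed by −0.11 to 0.01 over the 4 pairs, and 20 of its 20 members lay within 1.5-fold with the block, against 12 without it. The cytokine scores differed by −0.33 to 0.06, and 14 of 15 members in that fit lay within 2-fold. The acute phase scores differed by −0.24 to 0.19, with 23 of 24 members within 2-fold. The matrix list did not close up, at −0.90 to 0.59 over the pairs and 19 of 31 members within 2-fold. The score difference had 1 sign at all 4 numbers in 4 of the 45 lists: pericentral (0.0007 to 0.14) and pancreatic acinar genes were higher in MDKO at each, and lysosomal (−0.07 to −0.001) and neutrophil genes lower. Random signs would also agree at all 4 numbers in some of 45 lists. These 4 are therefore not read as differences between the genotypes.

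**Figure D2:**
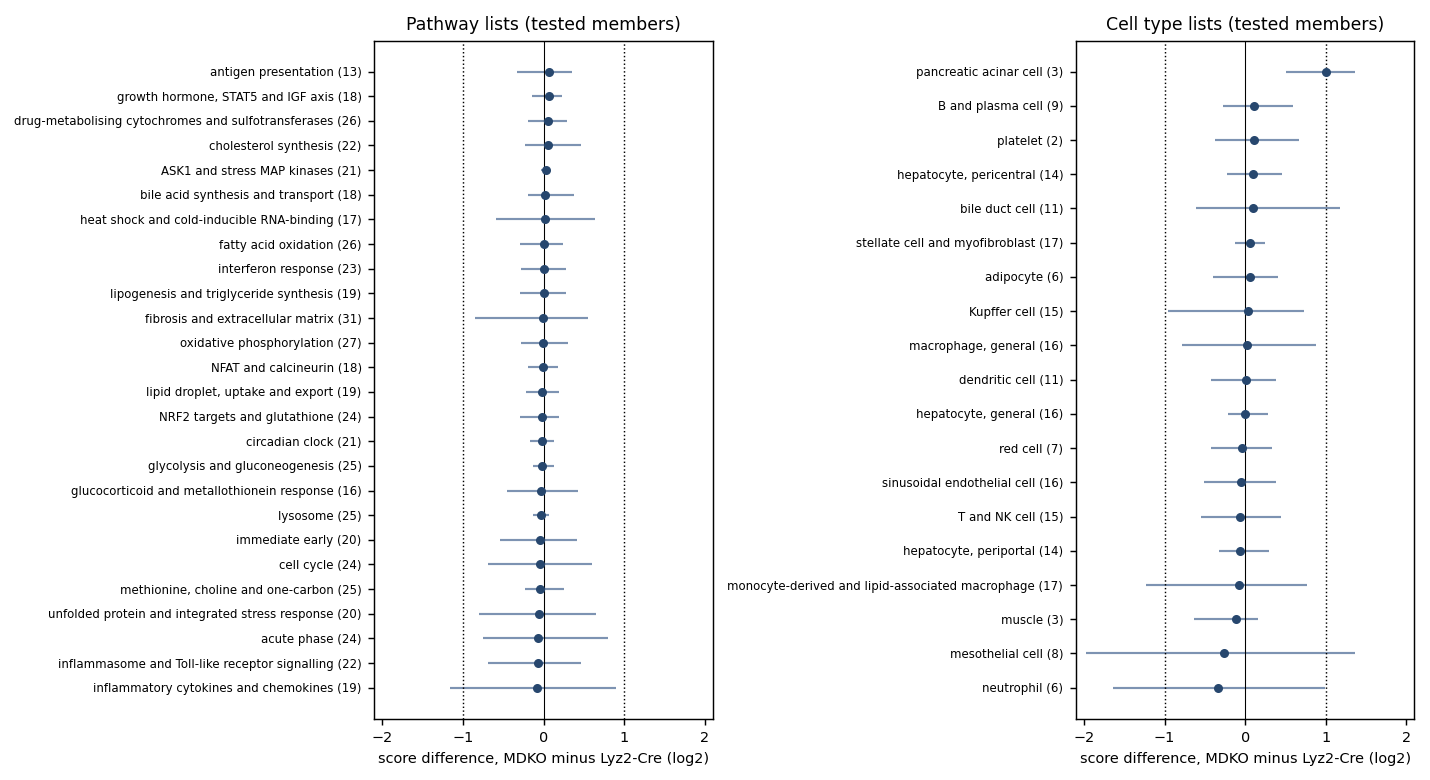
Difference in list score, MDKO minus Lyz2-Cre, in log2 units, for 26 pathway lists (left) and 19 cell type lists (right). Points are differences of group means over 4 livers each, bars are the exact 94.3% rank-sum intervals, and dotted lines mark 2-fold. All intervals but that of the pancreatic acinar list hold 0.

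Cell type markers gave wider bounds than the pathways. Of 19 lists, 9 stayed within 1.5-fold and 14 within 2-fold. The hepatocyte lists were among the closest. General hepatocyte markers differed by −0.01 (1.22-fold, 16 of 16 members within 2-fold), periportal markers by −0.07 (1.26-fold) and pericentral markers by 0.09 (1.38-fold), with 14 of 14 within 2-fold in each. Glul, the glutamine synthetase of the cells around the central vein, stood at 1540 to 1902 CPM in Lyz2-Cre livers and 1699 to 2025 CPM in MDKO livers. Stellate cell and myofibroblast markers had the tightest bound of the cell types (0.06, 1.19-fold). Lrat, which stores vitamin A as retinyl ester in quiescent stellate cells, stood at 41.0 to 62.5 against 40.2 to 59.8 CPM, and the small proteoglycan Dcn at 399 to 421 against 365 to 465 CPM.

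Markers of the targeted lineage overlapped between the groups. Lyz2, the lysozyme gene whose locus drives Cre in both groups, stood at 52.5, 195, 76.8 and 85.9 CPM in Lyz2-Cre and 54.1, 138, 75.9 and 105 CPM in MDKO livers, lowest in number 1 and highest in number 2 of each. Kupffer cell markers, which name the resident macrophages of the liver, differed by 0.03 with a bound of 1.94-fold, and general macrophage markers by 0.02 with 1.84-fold. Clec4f, a lectin of Kupffer cells, stood at 57.2, 94.4, 107 and 78.1 CPM in Lyz2-Cre livers and 41.0, 122, 89.7 and 125 CPM in MDKO livers. The highest and the lowest values both lay in the MDKO group. The list for macrophages that derive from monocytes or are lipid-associated differed by −0.08 (2.35-fold). Equality of this score within 2-fold was therefore not shown, and with the block 13 of 16 members lay within 2-fold. Neutrophil markers rested on 6 tested members of 13, all at means under 3 CPM, and differed by −0.34 (3.11-fold), with MDKO below Lyz2-Cre at every replicate number by 0.20 to 0.44. The 94.3% interval of this score, which does not use the numbers, held 0. The summed level of the list was lower in MDKO at numbers 1, 2 and 4. At number 3 it was 5.05 CPM in Lyz2-Cre and 5.30 CPM in MDKO.

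The list of pancreatic acinar genes was the exception to an interval that held 0, at 1.00 (0.51 to 1.36). It rested on 3 tested members of 21. Amy2a5, a pancreatic amylase, stood at 0, 0.255, 0 and 0 CPM in Lyz2-Cre livers and 0.740, 0.655, 0.691 and 0.375 CPM in MDKO livers. Cela1, an elastase and the only member at 1 CPM or more, stood at 5.65 to 9.65 against 6.63 to 10.2 CPM (log2 difference 0.02), and Cela2a at 0.234 to 0.425 against 0.458 to 0.491 CPM. The summed level of the list overlapped, at 6.33 to 10.0 against 7.78 to 11.4 CPM, so the score rests on traces of Amy2a5 and, to a lesser extent, Cela2a. Their source was not tested. The mesothelial list, which marks the capsule of the liver, had the widest bound of all (−0.27, 3.93-fold), from 2 MDKO livers. Upk3b, a mesothelial uroplakin, stood at 1.44 to 2.08 CPM in the 4 Lyz2-Cre livers and at 4.72, 0.0818, 2.19 and 0.666 CPM in the MDKO livers.

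Livers of 1 genotype differed from each other by about as much in the 2 groups. The median gene had an SD of 0.217 (log2 CPM, 4 livers) in Lyz2-Cre and 0.228 in MDKO. The common biological coefficient of variation, the spread left after counting error, was 0.178 and 0.179, beside 0.277 in the livers labelled NFATc3-MKO and 0.173 in those labelled ASK1-MKO. Genes that varied in one group tended to vary in the other, with a Spearman correlation of the 2 SDs of 0.644 across the tested genes, which share their libraries and are not independent. Without MDKO replicate 1 the median SD of that group fell to 0.160.

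The most variable genes did not all behave alike. Some jumped between 0 and about 10 CPM in single libraries, such as Gm14288, listed at 0 in Lyz2-Cre 1 and MDKO 3 and at 8.63 to 13.6 CPM in the other 6 livers, Gm21970, above 0 in 3 livers, and Fam177a, listed at 0 in MDKO 3 and at 7.90 to 11.6 CPM elsewhere. Whether reads shared with similar genes play a part in these jumps was not tested. Pde2a, a phosphodiesterase, stood at 14.8, 13.3, 14.5 and 0.413 CPM in Lyz2-Cre and 11.5, 1.06, 14.3 and 6.79 CPM in MDKO livers, low in different numbers. Igfbp1, Scara5, Chac1 and Lcn2 instead varied alike by number in both groups. Igfbp1, a secreted binder of insulin-like growth factors that insulin represses, stood at 12.2, 287, 163 and 382 CPM in Lyz2-Cre livers 1 to 4 and at 13.4, 320, 161 and 387 CPM in MDKO livers 1 to 4. Liver 1 was lowest and liver 4 highest in each group, and the 2 livers of each number lay close to each other. Scara5, a scavenger receptor for ferritin, was lowest in number 1 but highest in number 2 of each group, at 0.201, 3.74, 2.71 and 0.413 CPM against 0.278, 3.85, 1.84 and 0.458 CPM.

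Same-numbered livers were alike over the whole profile. Each library's nearest neighbour among the other 7 was the library of the same number and the other genotype, in 8 of 8 cases. Distance was measured after thinning all libraries to 8910009 counts, as the median squared difference of a gene divided by what counting error alone would give, so that 1 means no difference beyond counting. Same-numbered pairs lay at 1.45 to 3.02, pairs within a group at 3.63 to 13.9, and the other pairs across groups at 3.48 to 16.4. Numbers 3, 2, 4 and 1 were at 1.45, 2.25, 2.43 and 3.02. All same-numbered pairs thus differed by more than counting error, and were kept as separate libraries. Among genes at 10 CPM or more, 14, 12, 2 and 3 differed over 2-fold within the pairs numbered 1 to 4, against 23 to 210 in pairs within a group.

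Deviations from the group mean gave the same order. Across the tested genes, the deviation of each MDKO library correlated best with that of the same-numbered Lyz2-Cre library, in 4 of 4 rows and 4 of 4 columns, at 0.528, 0.508, 0.259 and 0.239 for numbers 1 to 4. Among genes at 10 CPM or more the mean of the 4 was 0.701, against 0.384 over all tested genes. The labelled pairing had the highest mean of the 24 possible pairings (exact one-sided permutation p = 0.0417, the smallest possible). In the other 5 pairs of liver groups the mean same-number correlation ran from −0.02 to 0.14. Of these only NFATc3-MKO with ASK1-MKO, at 0.131, also had its labelled pairing highest. Single pairs of libraries reached similar values elsewhere. Between Lyz2-Cre and NFATc3-MKO the same-number correlations ran from −0.206 to 0.561, highest for number 2. MDKO 1 and NFATc3-MKO 3, of unlike numbers, correlated at 0.54.

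A term for the replicate number was then tested gene by gene in the 8 livers, beside the genotype. It passed in 5256 of 12746 genes (41.2%, edgeR adjusted p under 0.05), where the genotype passed in 0. Without number 1 it passed in 2393. Fitted over all 16 livers, with 1 effect per number shared by the 4 groups, it passed in 2 genes, and none of the 10 genes with the smallest p in the 8 livers was among them. Between Lyz2-Cre and NFATc3-MKO livers the same term passed in 105 genes (0.807%), and in 0 in each of the remaining 4 pairs of groups. Adding the number brought the biological coefficient of variation of the 8 livers from 0.178 to 0.0802. The difference between these pairs of groups was not itself tested.

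The genes with the smallest p of the number term came from several programmes. After Igfbp1 (edgeR adjusted p = 2.11e-13) stood Lcn2, the iron-scavenging acute phase protein lipocalin 2, at 25.4, 285, 50.0 and 38.2 CPM in Lyz2-Cre and 21.6, 265, 50.8 and 26.2 CPM in MDKO livers (8.62e-11). Number 2 stood far above the others in both groups. Trp53inp1, a target of p53, was lowest in number 1, at 29.4 and 33.4 CPM against 120 to 167 CPM in the other 6 livers. Acot3, a peroxisomal thioesterase regulated by PPARα, was highest there, at 248 and 230 CPM against 50.4 to 120 CPM. Csad, which makes the taurine precursor hypotaurine, was high in numbers 1 and 3 (144 to 170 CPM) and low in 2 and 4 (55.3 to 67.5 CPM). Cyp2c38, Dpys, Chac1, Depp1 and Cxcl1 were the others of the first 10. The order of the numbers differed from gene to gene.

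**Figure D3:**
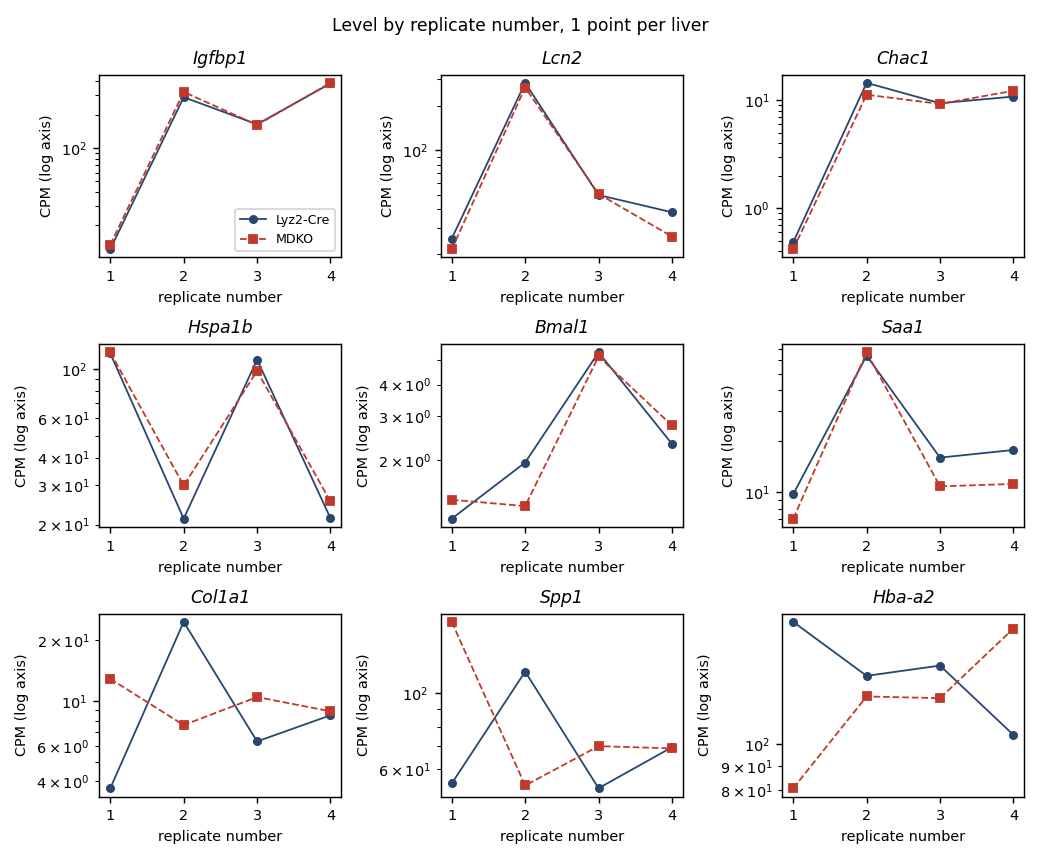
CPM (log axis) by replicate number in Lyz2-Cre (circles, solid line) and MDKO livers (squares, dashed line), 1 point per liver. In the upper 6 panels the 2 lines run close together, and in the lower row (Col1a1, Spp1 and Hba-a2) they cross. Lines join livers of a group for reading only.

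The unfolded protein and integrated stress response was among the lists that followed the number. This response slows translation and, through the transcription factor ATF4, turns on genes for amino acid supply and redox balance when amino acids run short or proteins misfold. Of 20 tested members 18 passed the number term, against 41.2% of all genes. Chac1, which degrades glutathione, stood at 0.483, 14.4, 9.35 and 10.8 CPM in Lyz2-Cre and 0.416, 11.2, 9.21 and 12.2 CPM in MDKO livers. Trib3, a feedback inhibitor of the response, stood at 6.39, 29.7, 20.4 and 18.6 against 4.67, 24.8, 22.7 and 15.7 CPM. Both were several times lower in number 1, and Chac1 missed the threshold of the number term when number 1 was left out. Atf3 and Ddit3, transcription factors downstream of ATF4, were high in numbers 2 and 3 and low in 1 and 4: Ddit3 stood at 7.88, 18.0, 18.4 and 10.0 against 9.20, 16.0, 16.1 and 9.95 CPM. Atf4 itself spanned only 74.6 to 131 CPM. The list score was 5.20, 5.94, 5.89 and 5.48 in Lyz2-Cre and 5.08, 5.85, 5.90 and 5.42 in MDKO livers.

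Some members of this list carry the letters of the binding element of ATF4 and its partners near their start, and 3 are printed to show it. The element was searched as TGATGNAA on both strands in RefSeq promoter windows of GRCm38.p6, 250 bases before to 50 after the start. It was found in 5 of 19 members with a window (Chac1, Atf3, Asns, Trib3 and Herpud1), and in 4.51% of all 27025 gene symbols with a window. The stretches below run 5′ to 3′ on the strand of the gene, with the match in capitals. Chac1 is at chr2:119351017-119351076 (plus strand), Atf3 at chr1:191183414-191183473 (minus) and Asns, the asparagine synthetase gene, at chr6:7693210-7693269 (minus).
Chac1: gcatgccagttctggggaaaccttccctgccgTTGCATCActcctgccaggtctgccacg
Atf3: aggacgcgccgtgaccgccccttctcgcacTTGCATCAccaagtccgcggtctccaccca
Asns: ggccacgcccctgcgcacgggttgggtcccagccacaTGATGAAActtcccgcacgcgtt
The matches are descriptions of the letters, and binding was not measured. All 5 genes passed the number term, and Asns stood at 33.7, 59.1, 38.3 and 24.9 CPM against 29.9, 50.3, 47.9 and 20.9 CPM, highest in number 2 and lowest in number 4 in both groups.

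Heat shock genes had another order of the numbers. Chaperones of this list are driven by HSF1 when proteins unfold, and the body's daily rhythm of temperature moves them too. Hspa1b, an inducible HSP70, stood at 118, 21.2, 110 and 21.4 CPM in Lyz2-Cre and 119, 30.0, 98.0 and 25.4 CPM in MDKO livers. Numbers 1 and 3 stood several times above 2 and 4 in each group. Hsph1 was highest in number 3 (104, 66.6, 160 and 66.8 against 98.8, 66.3, 163 and 66.1 CPM), as was Hsp90aa1. Cirbp, the cold-inducible RNA-binding protein, was lowest there, at 3.84 and 3.57 CPM against 7.28 to 11.2 CPM. Of 17 members 15 passed the number term, against 41.2% of all genes, and Hsf1 and Rbm3 did not. The heat shock element, searched on both strands as GAA, TTC and GAA with 2 free bases between each, was found in 4 of 12 members with a window (Hspd1, Hspe1, Hsph1 and Chordc1) and in 0.662% of all symbols. In the stretch between the divergent genes Hspe1 and Hspd1, given on the strand of Hspe1 at chr1:55088038-55088097, matches on the 2 strands overlap. The same bases were counted for both of these genes.
Hspe1: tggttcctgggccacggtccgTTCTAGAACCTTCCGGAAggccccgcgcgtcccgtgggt
Hspe1, the mitochondrial co-chaperonin, stood at 214, 142, 201 and 182 CPM against 218, 155, 178 and 170 CPM, and its partner Hspd1 at 687, 474, 661 and 618 against 630, 513, 643 and 587 CPM. Both were lowest in number 2.

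Clock genes marked number 3 off from the rest. Bmal1, the activator of the clock, stood at 1.17, 1.95, 5.38 and 2.32 CPM in Lyz2-Cre and 1.39, 1.31, 5.18 and 2.75 CPM in MDKO livers. Dbp, an output gene of opposite phase, stood at 43.0, 29.1, 13.2 and 28.7 against 38.0, 26.4, 11.7 and 25.7 CPM. Number 3 was thus highest in Bmal1 and lowest in Dbp in both groups. Nfil3, a repressor that opposes Dbp, was also highest in number 3 (30.4 and 30.3 CPM) and lowest in number 1 (9.41 and 10.7 CPM). Of 20 clock genes in the 8-liver fit 19 passed the number term, against 41.2% of all genes, and Per1 did not. The sources used here give no time of day of sampling, and its part in these values was not tested.

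Acute phase and inflammatory genes marked number 2. Saa1 and Saa2, the serum amyloids that hepatocytes secrete on cytokine signals, were several times higher there: Saa1 stood at 9.73, 63.8, 16.0 and 17.7 CPM in Lyz2-Cre and 6.98, 66.7, 10.8 and 11.2 CPM in MDKO livers. Orm2, an acid glycoprotein, stood at 105 and 130 CPM in number 2 and at 11.4 to 24.8 CPM elsewhere. Cxcl1, which draws neutrophils, stood at 10.5 and 11.1 CPM in number 2 and at 0.999 to 2.65 CPM elsewhere. In the acute phase list 18 of 24 members passed the number term, which 41.2% of all genes passed, and the abundant fibrinogen chain genes Fgb and Fgg did not. Among cytokines and chemokines 11 of 15 members in the fit passed, also Ccl2, which draws monocytes. General macrophage markers (14 of 16 members called) were highest in number 2 and lowest in number 1 in both groups, at scores of 4.98 and 4.89 against 3.77 and 3.57. Of the Kupffer cell markers 4 of 15 passed, a lower share than that of all genes.

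Hepatocyte metabolism was shared by number as well. Fatty acid oxidation was highest in number 1 and lowest in number 2 (20 of 26 members called), as were oxidative phosphorylation (21 of 27), cholesterol synthesis (16 of 22) and pericentral genes (13 of 14). Over all genes the share was 41.2%. Cyp2c29, a pericentral cytochrome, stood at 625, 258, 409 and 484 CPM against 530, 341, 467 and 514 CPM. Fgf21, a hormone of starved and stressed liver, ran otherwise and was highest in number 3 (125 and 129 CPM) and lowest in numbers 1 and 4 (40.4 to 53.4 CPM). Thrsp, a lipogenic target of thyroid hormone, stood at 235, 122, 328 and 233 CPM against 253, 160, 338 and 242 CPM, lowest in number 2 and highest in 3.

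**Figure D4:**
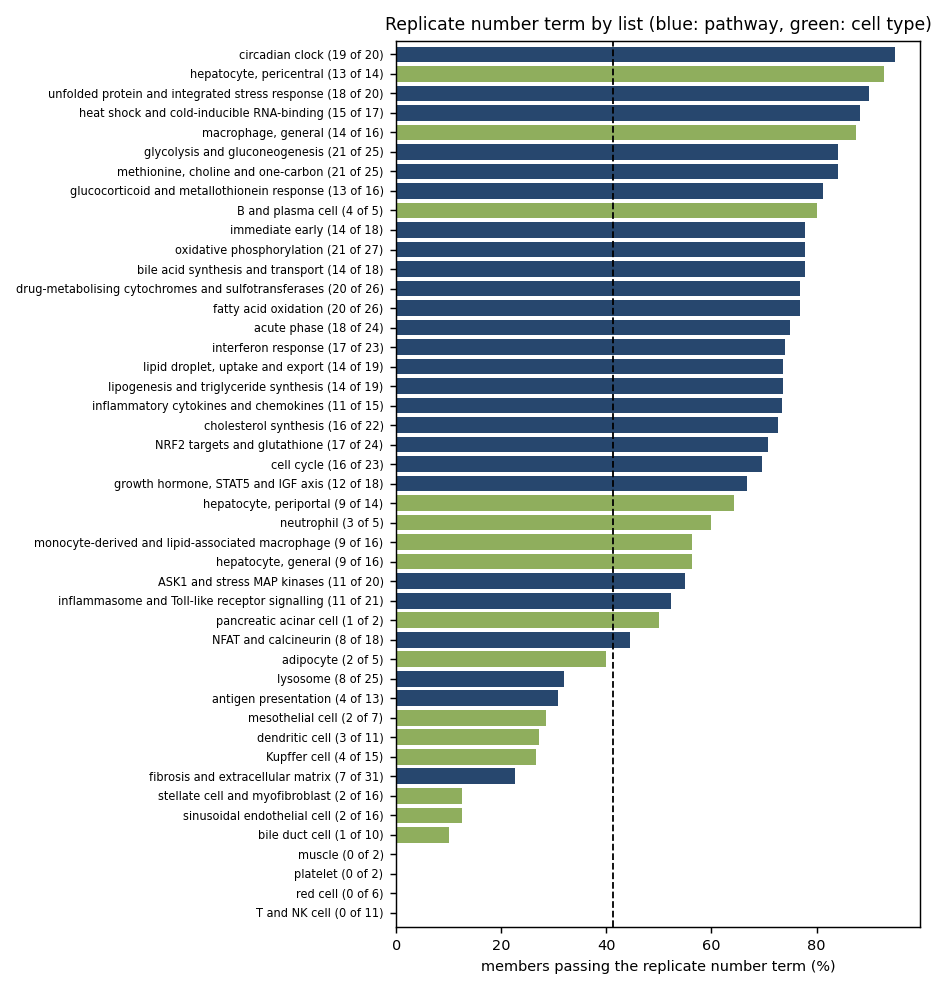
Percent of the tested members of each list that passed the replicate number term in the 8 livers (edgeR adjusted p under 0.05), for the 45 lists. The dashed line is the 41.2% of all genes tested. Clock, pericentral hepatocyte, stress response and heat shock lists stand at the top, and red cell, bile duct and endothelial lists near the bottom.

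Fewer matrix, vessel, duct and blood genes shared their variation by number. The likeness of a gene was described by its number share, the part of its variance between livers that same-numbered livers had in common (1 if their deviations are equal, 0 or below if they are unrelated or opposed). Its median over 11823 genes with a mean of 1 CPM or more was 0.651, and 14.5% of them lay below 0. Below 0 lay 17 of 29 matrix genes, 11 of 16 sinusoidal endothelial markers, 5 of 8 bile duct markers, 4 of 6 red cell genes and 4 of 5 mesothelial markers. In the stress response, heat shock, clock, fatty acid oxidation and glycolysis lists 0 members did. The lists were chosen with results of these data known, and no test was made between them.

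Col1a1, the main chain of scar collagen, stood at 3.70, 24.7, 6.31 and 8.51 CPM in Lyz2-Cre and 12.9, 7.61, 10.5 and 8.91 CPM in MDKO livers. Number 2 was highest in the first group and lowest in the second. Col3a1 stood at 16.6, 100, 31.9 and 31.9 against 40.1, 36.6, 38.9 and 38.8 CPM, so that the MDKO livers were nearly equal and the Lyz2-Cre livers spread widely. The matrix list as a whole had an SD of 0.553 over Lyz2-Cre livers and 0.0961 over MDKO livers. Lyz2-Cre 2 lay furthest out, at 4.00 against 2.71 to 3.10 in the other 3, with MDKO at 3.09 to 3.30. The other 3 Lyz2-Cre livers still spanned a wider range than the MDKO livers. Not all of the list behaved so: Postn, a matricellular protein, stood at 10.1, 22.4, 16.4 and 13.7 against 10.2, 21.4, 19.5 and 16.4 CPM and passed the number term, as did Mmp12 and Mmp13, proteases of macrophages and stromal cells.

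Duct and endothelial lists differed within the pairs in both directions. The bile duct score, MDKO minus Lyz2-Cre, was 1.18, −0.88, 0.10 and −0.03 at numbers 1 to 4, and the endothelial score −0.48, 0.19, −0.31 and 0.38. Pair 1 was the widest in each list, and its genes are given here. Spp1, osteopontin, made by duct cells and by macrophages of injured liver, stood at 54.6, 116, 52.9 and 69.6 CPM in Lyz2-Cre and 161, 53.9, 70.1 and 69.1 CPM in MDKO livers. Epcam and Krt7, surface and keratin markers of duct cells, stood at 9.07 and 4.21 CPM in MDKO 1 and at 2.25 to 3.87 and 0.491 to 1.44 CPM in the other 7 livers. Endothelial Dnase1l3, Kdr and Ptprb were lowest in MDKO 1, at 26.6, 31.5 and 52.5 CPM, while Lyz2-Cre 1 stood at 53.2, 46.2 and 78.5 CPM. Kupffer cell Cd5l, Marco and Timd4 were lowest in MDKO 1 too, at 45.9, 2.87 and 1.76 CPM. Upk3b, named above for the capsule, was highest there.

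Globin transcripts, which red cells carry, were ordered oppositely in the 2 groups. Hba-a2 stood at 180, 139, 146 and 104 CPM in Lyz2-Cre and 80.8, 126, 124 and 174 CPM in MDKO livers. Number 1 was highest and number 4 lowest in the first group, and the reverse held in the second. Hbb-bs had the same pattern, and 0 of 6 red cell genes in the fit passed the number term. The red cell list summed to 228 to 416 CPM over the 8 livers. The globins have near-identical copies, so reads can be split between them.

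The genes that differed most within a same-numbered pair, taken at 10 CPM or more and chosen after their values were seen, included members of these groups. In pair 1 Spp1, Scara3 and Col3a1 were among those higher in MDKO, and Hba-a2, F8 and Ppara among those lower. In pair 2 Gpnmb, a marker of lipid-associated macrophages, stood at 73.4 CPM in Lyz2-Cre and 22.8 CPM in MDKO, with Col1a1, Col3a1 and Col1a2 also lower in MDKO. In pair 4 Cd163 and Adgre1, a scavenger receptor and a surface marker of macrophages, were higher in MDKO, at 28.1 against 13.8 and 31.1 against 16.0 CPM. Pair 3, the closest, had 2 genes over 2-fold, Srp54b and Gm14440. Cd163 was also higher in MDKO in pair 2 (27.4 against 15.6 CPM) and lower in pairs 1 and 3, so that it did not separate the genotypes.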

How the data were processed

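RNA of whole liver was extracted with TRIzol and poly-A, strand-marked (dUTP) libraries were sequenced, per the labels' protocols. The authors deposited expected counts per gene symbol (17752 symbols, 85.42% of values whole), and HISAT2 and the build mm10 are named per the submitters' processing notes. The sources used here do not give the counting program, the annotation or the strand setting. Values were rounded to whole counts.

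Counts of all 16 livers were fitted in edgeR 4.0.16 (R 4.3.3) with filterByExpr, TMM scaling and the robust quasi-likelihood test, and the MDKO minus Lyz2-Cre contrast was taken. Equivalence used 2 one-sided tests on the fitted log2 difference and its standard error. Log2 CPM used a prior count of 2. The number term had 3 degrees of freedom in a fit of 8 livers. List scores used 743 tested symbols of 816. Limma 3.58.1 and DESeq2 1.42.0 served as alternatives, and the steps were tested on simulated data. The labels do not state that each library is a separate mouse, so p-values measure the spread between these samples. The labels do not state a pairing either. Same-numbered libraries correlated at 0.239 to 0.528 in their deviations. The main fit of 16 livers, its equivalence tests, the exact permutation tests of the targeted genes and the list intervals did not use the numbers. Only the fits with the block, the number term and the differences within same-numbered pairs did. The coverage of the list intervals assumes unrelated livers, which same-numbered livers were not.

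The groups, lists and members were chosen with earlier results of these data known. Genes named were both targeted genes, the 4 highest and 4 lowest by p at 1 CPM or more, the most variable, the 10 first by the number term, the 6 most tightly bounded and 4 members of each list (the 2 most abundant, the most changed and the most variable). Other genes named were chosen after their values were seen. Tables of cultured macrophages were not used here.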

Additional observations from a re-analysis of the deposited data

Results flagged for a closer look

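In each group of 4 livers, the highest or lowest value was examined for a wide gap to the nearest other liver, for 116 genes named in the text (232 gene and group combinations) and 45 lists (90 combinations). Such gaps numbered 39, with 14 in Lyz2-Cre 2 and 10 in MDKO 2. Chance gives one in about 1 in 20 groups of unselected values. Many of these genes were named for their variation and all share the same libraries, so the number found cannot be read against that rate. No cause was tested.

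Number 2 stood apart in both groups in acute phase and chemokine genes, and once more in a cytochrome. Lcn2 stood at 284.7 CPM in Lyz2-Cre 2 (next 49.95) and 264.8 CPM in MDKO 2 (next 50.79). Saa1 stood at 63.82 and 66.7 CPM, Orm2 at 105.5 and 129.8 CPM, Cxcl1 at 10.49 and 11.09 CPM, Ccl2 at 7.393 and 4.583 CPM, and Cyp3a41a at 135.9 and 168.0 CPM in the same 2 libraries. The acute phase list scored 8.04 and 8.233 there. In MDKO 2 alone of its group, Saa2 stood at 21.89 CPM (next 3.955), Fgg at 2211 CPM (next 1734) and Cela2a at 0.4911 CPM (next 0.4626). The same liver number thus stood apart in each genotype in Lcn2, Saa1, Orm2, Cxcl1, Ccl2, Cyp3a41a and the acute phase list. For Saa2, Fgg and Cela2a such a gap was counted in the MDKO group only.

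Lyz2-Cre 2 alone of its group was highest in Gpnmb at 73.38 CPM (next 14.18), Mki67 at 15.08 CPM, Slc7a11 at 16.66 CPM, Epcam at 3.866 CPM and Amy2a5 at 0.2549 CPM (0 in the others). Its cell cycle list scored 2.965 (next 2.3), and its bile acid list was lowest at 6.541 (next 6.917). MDKO 2 was also highest of its group in Mki67, Slc7a11 and the cell cycle list and lowest in the bile acid list, with gaps too narrow to be counted.

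Number 1 was highest in both groups in Nqo1, at 52.44 CPM in Lyz2-Cre and 48.71 CPM in MDKO. MDKO 1 was highest in Spp1 at 161.4 CPM (next 70.14), Epcam at 9.066 CPM (next 3.247), Gm21970 at 9.806 CPM (0 in the others) and Nfatc2 at 0.6938 CPM. Lyz2-Cre 1 was highest in Tmem192 at 15.2 CPM and Gm14440 at 21.36 CPM, and lowest in Ranbp9 at 27.63 CPM (next 29.23).

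The rest were scattered. Lyz2-Cre 4 was lowest in Pde2a at 0.4126 CPM (next 13.34). MDKO 3 was highest in Rab10 at 125.0 CPM (next 116.6), lowest in Ift74 at 3.455 CPM and lowest in the B and plasma cell list, with a score of -0.2164. Lyz2-Cre 3 was highest in Ptprb at 108.0 CPM (next 78.54), and MDKO 4 in Per1 at 23.15 CPM (next 18.54).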

How the results depend on the processing

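The count of 0 changed genes held under the replicate block (0 genes with all 16 livers and 0 with the 8), DESeq2, voom and each library left out (0 to 0). It became 4 with the replicate block in the 8 livers on the genes kept over 16 livers, an alternative chosen after seeing the data. These were Gm43302, Gm14308 and Derpc, lower in MDKO, and Gm52968, higher (edgeR adjusted p 0.0142 to 0.0254), each above 0 in 2 libraries of 1 group and at 0 in the other 6. Genes shown equal within 2-fold numbered 12241 and 12416 with the block, 12019 with DESeq2, 12322 with voom, 11874 with no filter, and 11550 to 11834 with a library left out.

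Leaving out 1 library at a time, Nfatc3 ran from -0.06 to 0.10, Map3k5 from -0.06 to 0.02, the median absolute list difference (0.0445 with all) from 0.0364 to 0.0849, the median SD from 0.180 to 0.228 in Lyz2-Cre and 0.160 to 0.238 in MDKO. The lowest MDKO value is the one without MDKO replicate 1. The mean same-number correlation ran from 0.324 to 0.455 with a number left out. At 10 CPM or more the Lyz2-Cre median SD was 0.175. The number term passed in 2393 to 5238 genes with a number left out (lowest without number 1) and in 2 genes when fitted over all 16 livers. It passed in 4879 with voom and 4218 at equal depth. The cause of these shifts was not tested. Of single results, 10 of the first 10 number genes missed the threshold over 16 livers, and Chac1 missed it without number 1. The pancreatic acinar difference was 1.5 at a prior count of 0.5 and 0.68 at 5. MDKO 3 has the lowest depth, and genes under 10 CPM limit the bounds.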

Other observations

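Cell cycle genes also followed the number. Of 23 cell cycle genes in the 8-liver fit 16 passed the number term, against 41.2% of all genes. Mki67, a marker of dividing cells, stood at 5.87, 15.1, 5.38 and 6.24 CPM in Lyz2-Cre livers 1 to 4 and at 5.69, 11.5, 7.49 and 6.2 CPM in MDKO livers 1 to 4. Top2a, a topoisomerase of dividing cells, stood at 3.26, 8.16, 4.44 and 3.82 against 3.01, 7.16, 3.92 and 3.5 CPM. Both were highest in number 2 of each group. The next genes were chosen after their values were seen. Slc7a11, the cystine importer, stood at 2.90, 16.7, 4.12 and 2.32 against 2.31, 12.0, 6.45 and 2.04 CPM, also highest in number 2. Mthfd2, a mitochondrial enzyme of folate metabolism, was lowest in number 1, at 1.41 and 0.971 CPM against 5.57 to 11.1 CPM in the other 6 livers.

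Slc10a1, which takes bile acids up into hepatocytes, stood at 429, 143, 261 and 318 CPM in Lyz2-Cre and 419, 186, 273 and 328 CPM in MDKO livers, with number 1 highest and number 2 lowest in each group. Cyp3a41a, a cytochrome known for higher levels in female mouse liver, stood at 26.9, 136, 20.5 and 25.0 against 17.7, 168, 22.7 and 14.4 CPM in these livers, all labelled male. Cyp17a1, a steroid hydroxylase, had a log2 difference of −0.52, at 24.7, 9.31, 14.1 and 18.6 CPM against 12.4, 11.5, 12.4 and 10.2 CPM (edgeR adjusted p = 1), and the groups overlapped.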
